A study of Mus musculus with 20 samples.

Results

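The genes described here are the 31 listed for mitochondrial fatty acid oxidation and ketone body metabolism, measured in mouse liver. Members were the listed genes with a probe set that the platform's annotation pairs with exactly 1 gene symbol, which gave values for 28 of the 31, out of 18193 genes measured in this way. Acsl1 and Ucp2 are not named in the probe annotation used here, and Cpt1b, the muscle form of carnitine palmitoyltransferase, was named only by a probe set that also names other genes, so these 3 genes have no value. All mice were male C57BL/6J, arrived at 3 weeks of age, ate a low-fat diet (10 kcal% fat) for acclimation, and were 8 weeks old when their livers were taken after a fast of 16 h. The HFD group (10 mice) then received a diet with 45 kcal% fat for 4 weeks, and the MSXH group (10 mice) received the same fat content together with 0.02% of the maple syrup extract that the labels call MSXH. Mice kept on low fat, and mice given more extract, are named in the series text and are not analysed here. The comparison asks how the extract relates to liver expression under a high-fat diet.

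In a fasting animal the liver takes up fatty acids, couples them to coenzyme A and moves them into mitochondria as carnitine esters. Inside, beta oxidation shortens the chain by repeated dehydrogenation, hydration, a further dehydrogenation and thiolysis, and passes electrons through the electron transfer flavoprotein to the respiratory chain. The liver turns much of the acetyl-CoA formed into ketone bodies and exports them. It makes little of the enzyme that would let it burn ketone bodies itself, which muscle, heart and brain hold.

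RNA of each liver was put on 1 Affymetrix 3' array, with values on a log scale from 5.17 to 15.01 whose base the sources do not state. Differences between mice were compressed in the deposited values: the median SD over the 20 mice was 2.05e-05 for the members and 1.21e-05 for all genes. Fold changes are therefore not given. Levels are given in SD units, as the distance from the mean of the HFD mice divided by the pooled SD within groups, and a difference between groups as the standardized difference, MSXH minus HFD, on that same unit with its 95% interval. All 8 measured hepatocyte markers lay above the array medians. MSXH 4 and MSXH 6 stood apart from the other 18 arrays: the mean level of 14 skeletal muscle genes was 8.09 and 7.53 on the deposited scale there, against at most 6.46 elsewhere, and the difference without them is given where it moved by over 1.5 times or turned its sign. In a piece of liver, fewer cells of a type and less RNA per cell cannot be told apart.

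Sequences before the start sites of Fabp1, Bdh1, Hadha and Hadhb are shown first, from RefSeq (build GRCm38.p6), 5′ to 3′ on the plus strand. No relation of sequence to level was tested. Fabp1 and Bdh1 are shown because their levels followed each other most closely of all pairs of members, each with the 250 bases before its start (for Bdh1 the first of the 2 starts listed). Hadha and Hadhb encode the subunits of one enzyme complex and are read in opposite directions from the 272 bases between them.
Fabp1 promoter, chr6:71199629-71199878: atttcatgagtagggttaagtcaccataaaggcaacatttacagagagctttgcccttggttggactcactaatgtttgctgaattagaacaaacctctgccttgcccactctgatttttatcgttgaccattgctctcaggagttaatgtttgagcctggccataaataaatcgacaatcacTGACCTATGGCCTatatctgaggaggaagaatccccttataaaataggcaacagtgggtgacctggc
Bdh1 promoter, chr16:31422047-31422296: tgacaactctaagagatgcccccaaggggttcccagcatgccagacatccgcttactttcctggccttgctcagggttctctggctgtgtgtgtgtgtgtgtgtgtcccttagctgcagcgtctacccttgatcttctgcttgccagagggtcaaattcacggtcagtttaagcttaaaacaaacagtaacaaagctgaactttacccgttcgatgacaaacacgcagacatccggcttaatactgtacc
Hadha-Hadhb, chr5:30154981-30155252: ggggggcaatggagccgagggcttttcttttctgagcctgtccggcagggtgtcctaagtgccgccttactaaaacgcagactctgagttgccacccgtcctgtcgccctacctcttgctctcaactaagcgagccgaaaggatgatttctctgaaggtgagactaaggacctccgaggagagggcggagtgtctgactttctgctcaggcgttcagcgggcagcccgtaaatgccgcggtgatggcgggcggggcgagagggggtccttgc

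The capitals mark 13 bases of the Fabp1 promoter, 67 to 55 bases before the start, that match AGGNCA, a space of 1 base and AGGNCA read on the minus strand. This is the form of repeat that PPAR and other nuclear receptors are known to bind. Both strands of the 250 bases before each start were searched. The repeat was found in 0.338% of 32851 promoters and in Fabp1 alone of the 24 members with a promoter in the table. The shorter motif AGGTCA, which can lie within the repeat, was present before Acadm, Acadvl, Cpt1a, Echs1, Fabp1 and Slc27a2, 6 of those 24 genes, and in 4607 of the 32851 promoters. It occurred 2 times in the Fabp1 promoter and in neither of the other sequences shown. A match describes the letters only.

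No member differed between the groups past the threshold. At an adjusted p of 0.05 (limma, Benjamini-Hochberg over all genes) 0 of the 28 members were called, against 0% of all genes tested, and the rank sum test also called 0. At an unadjusted p under 0.05 limma again counted 0 of 28 members, where 10.9% of all genes lay under that p (6.58% higher in MSXH and 4.31% lower). The rank sum test also counted 0 members under that p, where it placed 9.33% of all genes. The adjusted p-values of the members ran from 0.500 to 0.993. In the deposited values 14 members were higher in MSXH and 14 lower, beside 54.7% of all genes higher, and their median standardized difference was -0.0904, beside 0.0669 over all genes. The single differences ran from -0.858 for Slc25a20 to 0.762 for Etfa. The ranges of the 10 HFD and the 10 MSXH mice overlapped for every member, and 0.022% of all genes had groups that did not overlap. When each array was centred on its median, 26 of the 28 members were lower in MSXH, with a median of -0.665, but the median of all genes moved with them to -0.661, so the sign of a member is read below only for the values as deposited. Without MSXH 4 and 6, 12 members were higher and 16 lower, with a median of -0.162. The interval limit farthest from zero was -1.77 SD, for Slc25a20, so differences well above 1 SD lie within the precision that 10 mice a group give.

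**Figure D1:**
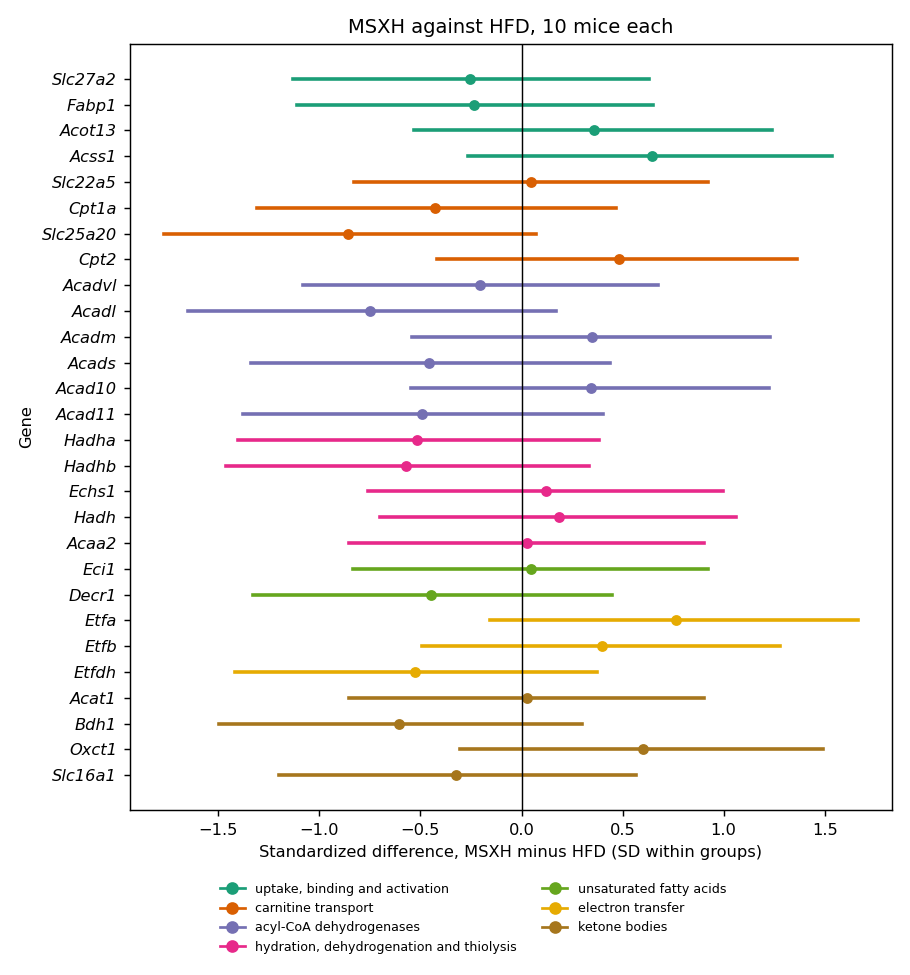
Standardized difference between the 10 MSXH and the 10 HFD mice for each of the 28 genes (points, in SD within groups) with its 95% confidence interval (lines), coloured by role in the pathway. Points lie on both sides of zero, from -0.858 for Slc25a20 to 0.762 for Etfa, and every interval crosses zero.

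Among the genes of uptake, binding and activation, 2 of 4 were higher and 2 lower, and none passed. Fabp1, the liver protein that binds fatty acids in the cytosol, ran from -2.08 through a median of 0.161 to 1.08 SD in HFD, and from -2.29 through -0.167 to 1.21 SD in MSXH. The groups covered nearly the same span, and the standardized difference was -0.233 (95% interval -1.11 to 0.650). Slc27a2, which takes up fatty acids and activates those of very long chain, differed by -0.255 (-0.424 without MSXH 4 and 6) and Acot13, a mitochondrial thioesterase that splits acyl-CoA, by 0.359 (0.614 without them). Acss1, which activates acetate in mitochondria, ran from -0.445 through 0.0240 to 0.300 SD in HFD and from -0.141 through 0.170 to 4.50 SD in MSXH. Its HFD mice lay close together, and the MSXH range was drawn out by MSXH 4 and, less far, MSXH 6. Its difference was 0.644 (-0.265 to 1.54; limma p = 0.159, adjusted p = 0.617), and of the 100 pairings of 1 mouse from each group the MSXH mouse was higher in 69.

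Carnitine transport carries the fatty acid across the inner membrane, and held the member with the smallest p. Slc25a20, the carrier that exchanges acylcarnitine for carnitine, ran from -1.93 through 0.269 to 1.01 SD in HFD and from -2.79 through -0.669 to 0.501 SD in MSXH. MSXH 8 was the lowest mouse and 24 of 100 pairs had the MSXH mouse higher, but HFD 3 also lay near the low end and the groups overlapped over most of their range. The difference was -0.858 (-1.77 to 0.0720; limma p = 0.0661, adjusted p = 0.500). The other probe set of Slc25a20 was also lower in MSXH but by less, at -0.278 (-1.16 to 0.607, limma p = 0.543 with all probe sets tested). The 2 probe sets correlated at r = 0.882 across the 18 mice without the 2 arrays of high muscle level. Cpt1a, the liver form of the outer membrane enzyme that limits the rate of the pathway, ran from -1.29 through -0.0674 to 2.23 SD in HFD, where HFD 10 was highest, and from -2.16 through -0.460 to 0.870 SD in MSXH, where MSXH 9 was lowest. Its difference was -0.427 (-1.31 to 0.467; limma adjusted p = 0.761).

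Cpt2, the inner membrane enzyme that returns the acyl group to coenzyme A, ran from -1.60 through -0.000958 to 1.46 SD in HFD and from -0.947 through 0.336 to 2.44 SD in MSXH. The difference was 0.480 (-0.416 to 1.36; limma adjusted p = 0.729). Its other probe set went the other way, at -1.40 (-2.37 to -0.399; limma p = 0.00535 and adjusted p = 0.286 over all 34945 probe sets), with MSXH values from -2.78 to -0.613 SD and HFD values from -2.28 to 1.43 SD. The 2 probe sets of Cpt2 correlated at r = 0.373 across the 18 mice without MSXH 4 and 6. Over all 54 probe sets of the members, this one and 1 further probe set of Hadhb had an unadjusted p under 0.05, where 10.7% of all probe sets did. Slc22a5, the plasma membrane carnitine transporter, differed by 0.0471, and by 0.0939 without MSXH 4 and 6. The level of Cpt1a was set against that of Slc25a20 across the same 18 mice, 1 of 2 relations of single members computed, with Pearson's r = 0.383 (permutation p = 0.119, adjusted p = 0.238) and Spearman's rho = 0.420 (permutation p = 0.0855, adjusted p = 0.168). Within HFD r was 0.153 and within the 8 MSXH mice 0.549.

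The acyl-CoA dehydrogenases open each turn of beta oxidation and differ in the chain length they take. Of 6, 2 were higher and 4 lower in MSXH. Acadl, the long-chain enzyme, ran from -1.03 through -0.264 to 1.60 SD in HFD and from -2.26 through -1.06 to 1.59 SD in MSXH. The highest MSXH mouse was MSXH 4 and the lowest MSXH 8. The difference was -0.750 (-1.65 to 0.169; limma p = 0.115, adjusted p = 0.573), and without MSXH 4 and 6 it was -1.32 (limma p = 0.0158, adjusted p = 0.391). Acadl was the only member under an unadjusted p of 0.05 in that fit, where 10.3% of all genes lay under it. On the same 18 arrays the difference of Acadl was -0.201 with each array centred and turned to 0.949 with quantile normalization. The medians of these 18 arrays ran from 6.52156 to 6.52172, a span far wider than the SD of Acadl, 4.83e-06. The centred value therefore mostly follows the array medians and cannot test the difference. After quantile normalization only 12 members still varied on these arrays. The value of 0.949 may thus rest on tied values and is not read as a reversal. The other probe set of Acadl differed by 0.114 over all 20 mice, and the 2 probe sets correlated at r = 0.0425 across the 18. Acadvl, the very-long-chain enzyme, ran from -1.14 through 0.217 to 1.21 SD in HFD and from -1.61 through -0.344 to 1.63 SD in MSXH. Both MSXH 4 and MSXH 6 lay above all other mice for Acadvl, whose difference was -0.206 (-1.08 to 0.676; limma adjusted p = 0.940) with them and -0.806 (limma p = 0.371) without them.

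Acadm, the medium-chain enzyme, ran from -1.42 through -0.141 to 2.02 SD in HFD and from -0.689 through 0.259 to 1.63 SD in MSXH, a difference of 0.348 (-0.541 to 1.23; limma adjusted p = 0.811), which was 0.117 without MSXH 4 and 6. Acad11, which takes long-chain substrates, ran from -2.31 through 0.0977 to 1.63 SD in HFD and from -2.54 through -0.554 to 0.451 SD in MSXH. HFD 2 and MSXH 8 were the low ends of the 2 groups, and the difference was -0.494 (-1.38 to 0.404; limma adjusted p = 0.722). Acads, the short-chain enzyme, differed by -0.457 and Acad10 by 0.343.

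The steps that follow are hydration, dehydrogenation and thiolysis, where 3 of 5 members were higher and 2 lower. Hadha and Hadhb, the alpha and beta subunits of the trifunctional protein that carries out these steps on long chains, were the 2 lower ones. Hadhb ran from -1.47 through 0.162 to 0.983 SD in HFD and from -2.82 through -0.419 to 0.933 SD in MSXH, with MSXH 7 lowest and MSXH 8 also low. Its difference was -0.571 (-1.46 to 0.332; limma p = 0.210, adjusted p = 0.666). Hadha ran from -2.05 through 0.263 to 1.22 SD in HFD and from -1.81 through -0.184 to 0.595 SD in MSXH, a difference of -0.518 (-1.40 to 0.382; limma p = 0.258, adjusted p = 0.709). The 2 genes that share the stretch of DNA printed above correlated at r = 0.677 across the 18 mice (permutation p adjusted over all member pairs 0.0148) but at rho = 0.486 (adjusted 0.216), so that the rank measure did not pass. Echs1, the short-chain hydratase, differed by 0.120, Hadh, the dehydrogenase for medium and short chains, by 0.183, and Acaa2, a thiolase, by 0.0248. Without MSXH 4 and 6 these were 0.241, 0.286 and 0.0793.

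For unsaturated fatty acids, Eci1, which moves a double bond into the position the pathway can use, differed by 0.0459 (-0.0527 without MSXH 4 and 6), and Decr1, which removes one, by -0.446. Decr1 had its lowest value in MSXH 8, at -2.84 SD, and so did Eci1, at -2.19 SD. In electron transfer, Etfa, the alpha subunit of the flavoprotein that accepts electrons from the dehydrogenases, had the highest difference of all members. It ran from -2.43 through -0.0911 to 1.47 SD in HFD and from -0.567 through 0.719 to 2.35 SD in MSXH. The HFD range reached low because of 1 mouse, HFD 9, and 68 of 100 pairs had the MSXH mouse higher. The difference was 0.762 (-0.158 to 1.66; limma p = 0.162, adjusted p = 0.621). Etfb, the beta subunit, differed by 0.400, with MSXH 4 at 1.73 SD and MSXH 6 at 1.59 SD, and by 0.0905 without these 2 mice; leaving out single mice gave 0.195 to 0.724. Etfdh, which passes the electrons on to ubiquinone, differed by -0.529. By the probe sets used, the 3 electron transfer genes thus did not share a sign. The other probe set of Etfdh differed by 0.279, and correlated with the one used at r = 0.282 across the 18 mice without MSXH 4 and 6.

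Of the 4 ketone body genes with values, 2 were higher and 2 lower by the probe sets used. Bdh1, which interconverts acetoacetate and hydroxybutyrate, ran from -1.41 through 0.0379 to 1.20 SD in HFD and from -2.31 through -0.417 to 0.776 SD in MSXH. Low values occurred in both groups, in HFD 9 and in MSXH 3, 4, 7 and 8, and the difference was -0.607 (-1.50 to 0.300; limma p = 0.183, adjusted p = 0.643). Acat1, the thiolase that joins and splits acetoacetyl-CoA, ran from -2.11 through 0.189 to 1.73 SD in HFD and from -1.02 through 0.00847 to 1.37 SD in MSXH, a difference of 0.0254 (-0.852 to 0.902; limma adjusted p = 0.993), which turned to -0.154 without MSXH 4 and 6. The other 2 probe sets of Acat1 were lower in MSXH, at -0.396 and -0.500. Slc16a1, which carries ketone bodies and lactate across the plasma membrane, differed by -0.322.

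Oxct1 encodes the enzyme that activates acetoacetate for use as fuel outside the liver. It ran from -0.407 through 0.00916 to 0.500 SD in HFD and from -0.184 through 0.139 to 4.43 SD in MSXH. On the deposited scale MSXH 4 stood at 7.1206 and MSXH 6 at 7.1130, and the other 18 mice of both groups between 7.1096 and 7.1117. The difference was 0.601 (-0.305 to 1.49; limma p = 0.187, adjusted p = 0.647), and 0.277 without these 2 arrays. Acss1 was also highest in them, at 5.8836 in MSXH 4 and 5.8731 in MSXH 6 against at most 5.8708 elsewhere, and its difference without them was 0.525. Other probe sets did not all show this. For 1 of Acss1 both arrays lay below the mean of the other 18 mice. For 1 of Oxct1 MSXH 6, at 5.9289, lay below the highest other mouse, at 5.9302. For another of Oxct1 both MSXH 4, at 5.6443964, and MSXH 6, at 5.6444212, lay below the highest other mouse, at 5.6444227. By the probe sets used, Oxct1, Acss1 and Acadvl were the members for which both arrays lay above all other mice. Across the other 18 mice Oxct1 and the skeletal muscle list had r = 0.146 (permutation p = 0.562) and rho = 0.340 (permutation p = 0.168, adjusted p = 0.168). Of the 14 muscle genes, 13 were higher in MSXH over all 20 mice, and the part of muscle RNA in the levels of these 3 members was not tested.

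**Figure D2:**
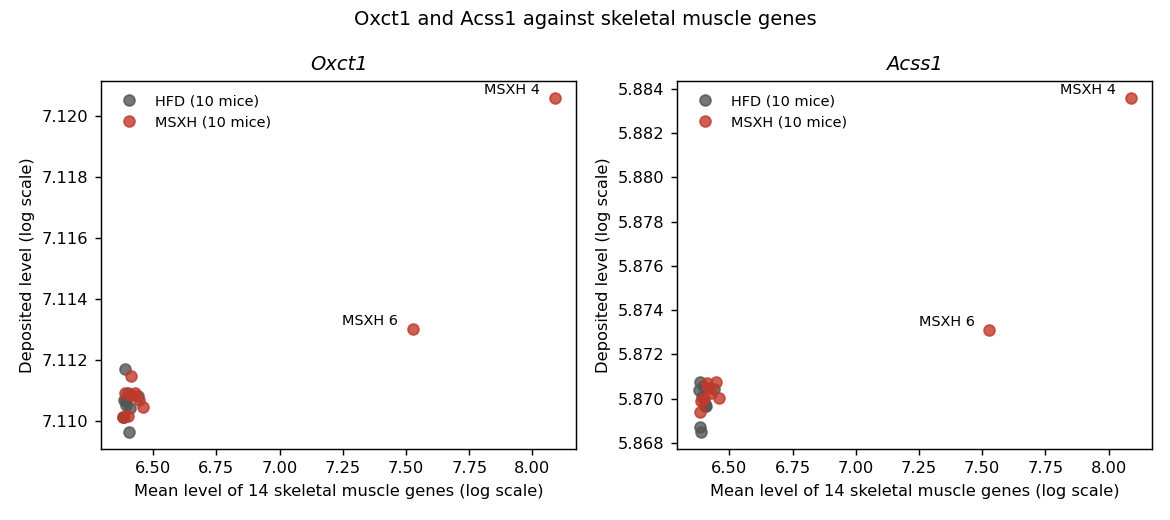
Deposited level (log scale) of Oxct1, left, and Acss1, right, against the mean level of 14 skeletal muscle genes in each of the 20 mice (grey, HFD; red, MSXH). MSXH 4 and MSXH 6 lie apart on both axes, with muscle levels of 8.09 and 7.53, and the other 18 mice sit together at muscle levels up to 6.46.

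A list of other genes of the pathway holds 34 genes, among them regulators, further acyl-CoA synthetases and transporters and branched-chain enzymes, of which 31 had a value. In MSXH 18 were higher and 13 lower, 0 passed the adjusted threshold and 1 had an unadjusted p under 0.05, where 10.9% of all genes did. This gene was Slc27a4, a fatty acid transport protein, with a difference of 0.971 (0.0279 to 1.89; limma p = 0.0411, adjusted p = 0.437). The next by p were Eci2, an isomerase for unsaturated chains, at -0.918 (adjusted p = 0.459), Acot9, a mitochondrial thioesterase, at 0.905 (adjusted p = 0.470) and Ivd, a dehydrogenase of leucine breakdown, at 0.813 (adjusted p = 0.534), all by limma. The median of the list was 0.0851.

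Single mice of both groups stood low or high over many members. MSXH 8 had a median of -1.27 SD over the 28 members and the lowest value of all 20 mice for 8 of them. MSXH 7 had a median of -1.17 SD and HFD 9 of -1.06 SD, with the lowest value for 4 and 5 members. HFD 5 had the highest median, 0.740 SD, and the highest value for 7 members. Over all genes the medians of these 4 mice lay between 0.0111 and 0.162 SD. How often each mouse was lowest or highest over all genes is not given here. The counts are therefore not read as particular to these genes.

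**Figure D3:**
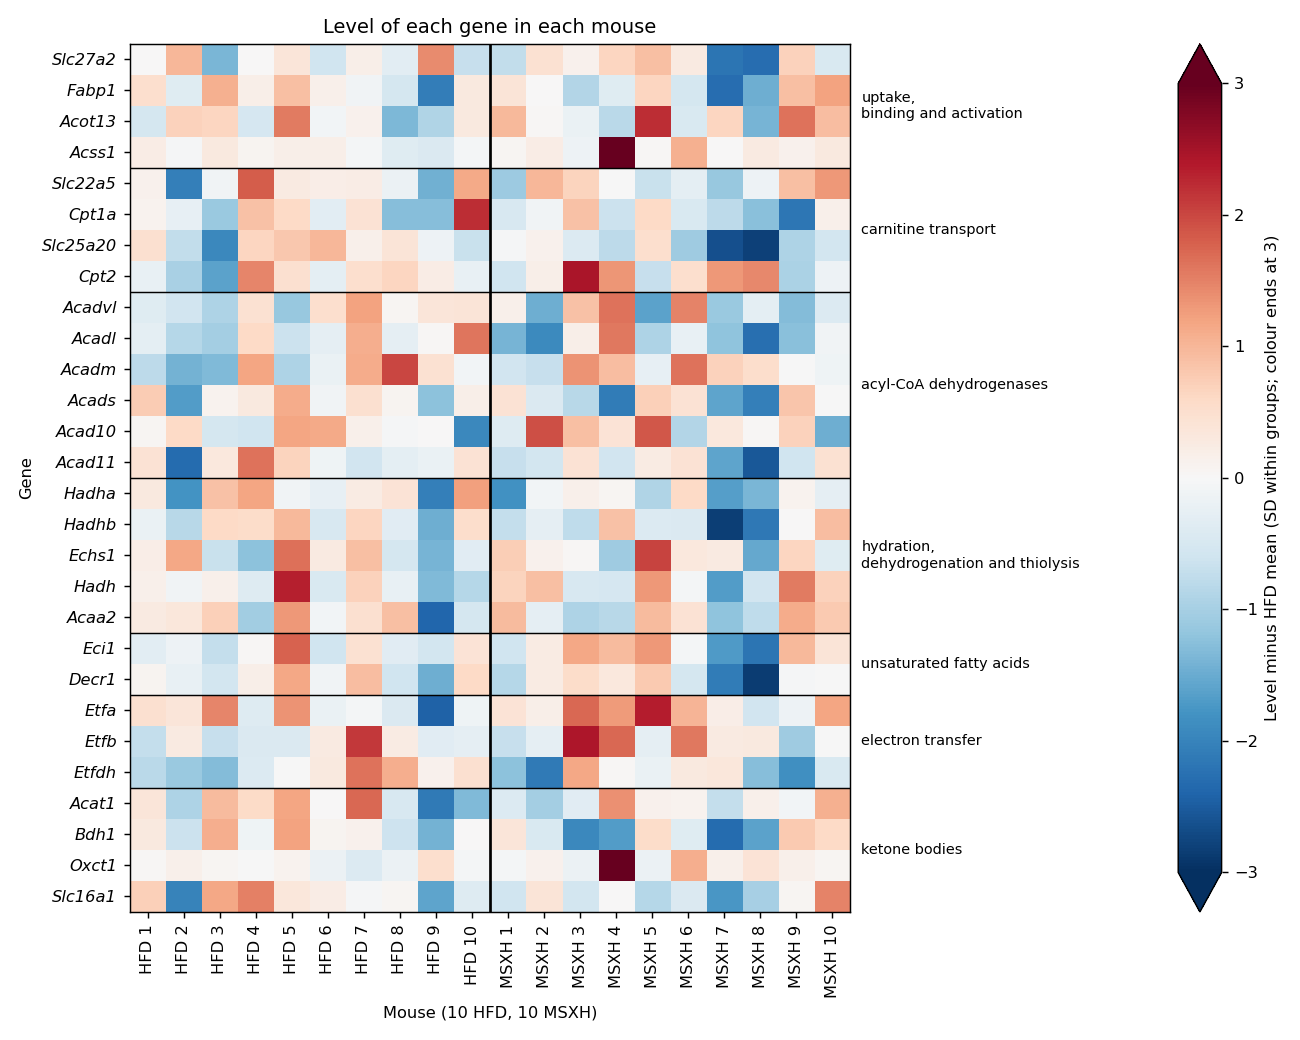
Level of each of the 28 genes (rows, ordered by role) in each of the 20 mice (columns, HFD left and MSXH right of the black line), as the distance from the HFD mean in SD within groups (blue, lower; red, higher; colour ends at 3 SD either way). Columns MSXH 7, MSXH 8 and HFD 9 are mostly blue and HFD 5 mostly red, with medians of -1.17, -1.27, -1.06 and 0.740 SD.

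Members that varied together were sought across the 18 mice without MSXH 4 and 6, on deviations from the group means, with Pearson's and Spearman's coefficients for the 378 pairs, each with 100000 permutations within groups and Benjamini-Hochberg over the pairs. The median r of the member pairs was 0.229, with 66.4% above zero, and that of all pairs of genes 0.00250, with 50.3% above zero. Both coefficients passed an adjusted p of 0.05 for 13 pairs, all of them positive. The share of pairs of all genes that would pass was not computed, so this count is not read as particular to these genes. Fabp1 and Bdh1 were closest, at r = 0.947 (permutation p = 1e-05, the smallest the permutations can give, adjusted 0.00126) and rho = 0.896 (adjusted 0.00945). The mice low in both genes were HFD 9, MSXH 7, MSXH 8 and, less far for Fabp1, MSXH 3, and those high in both included HFD 3 and HFD 5. Within HFD r was 0.935 and within the 8 MSXH mice 0.957, and leaving out the 2 mice whose Fabp1 lay farthest from its median gave 0.945. The other probe sets of these genes gave r from 0.906 to 0.954. The relation was also past the threshold with arrays centred (r = 0.909) and with the mean of each gene's probe sets (r = 0.965). With quantile normalization Fabp1 had a single value on every array, so the pair could not be computed.

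**Figure D4:**
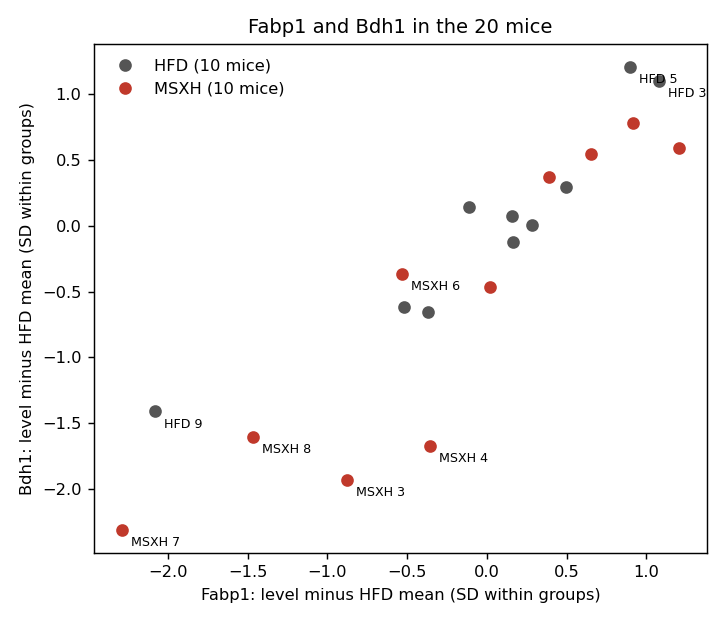
Level of Bdh1 against level of Fabp1 in each of the 20 mice (grey, HFD; red, MSXH), both as the distance from the HFD mean in SD within groups. The points rise together in both groups, with r = 0.947 over the 18 mice without MSXH 4 and MSXH 6.

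Eci1 and Decr1, which act in turn on unsaturated chains, had r = 0.925 (adjusted p = 0.00126, permutation) and rho = 0.863 (adjusted p = 0.0113, permutation). Bdh1 and Hadhb each took part in 4 of the 13 pairs, and Fabp1 and Hadh in 3. These were Fabp1 with Hadhb at r = 0.887, Hadh with Bdh1 at 0.834, Acads with Bdh1 at 0.832, Hadhb with Bdh1 at 0.811, Hadh with Acaa2 at 0.807, Acads with Hadhb at 0.771, Hadhb with Hadh at 0.730 and Fabp1 with Acss1 at 0.603. Fabp1 with Acss1 fell to r = 0.441 without the 2 farthest mice. The remaining pairs were Cpt2 with Acadm at r = 0.735, Acadl with Etfdh at 0.672 and Cpt1a with Decr1 at 0.617. Most of these relations were weaker in other probe sets of the same genes. With them r stayed at 0.719 for Eci1 with Decr1 and for Acads with Bdh1. The lowest r was 0.315 for Cpt2 with Acadm, 0.226 for Hadh with Bdh1, 0.205 for Hadh with Acaa2, 0.182 for Cpt1a with Decr1, 0.166 for Fabp1 with Hadhb, 0.0994 for Acads with Hadhb and 0.0118 for Hadhb with Bdh1. It was below zero for Acadl with Etfdh (-0.113), Hadhb with Hadh (-0.150) and Fabp1 with Acss1 (-0.338), the last with 4 of 5 other pairings negative and the probe sets of Acss1 themselves at r = -0.429 and -0.0686 with the one used. How many pairs passed turned on the scale. With arrays centred it was 182 (7 of the 13 among them), where all members share the variation of the array medians. With the mean of each gene's probe sets it was 7, of which Fabp1 with Bdh1 alone was among the 13. Slc22a5 and Hadha, at r = 0.888 and rho = 0.639 (adjusted p = 0.0878, permutation), passed by Pearson's coefficient and not by Spearman's.

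**Figure D5:**
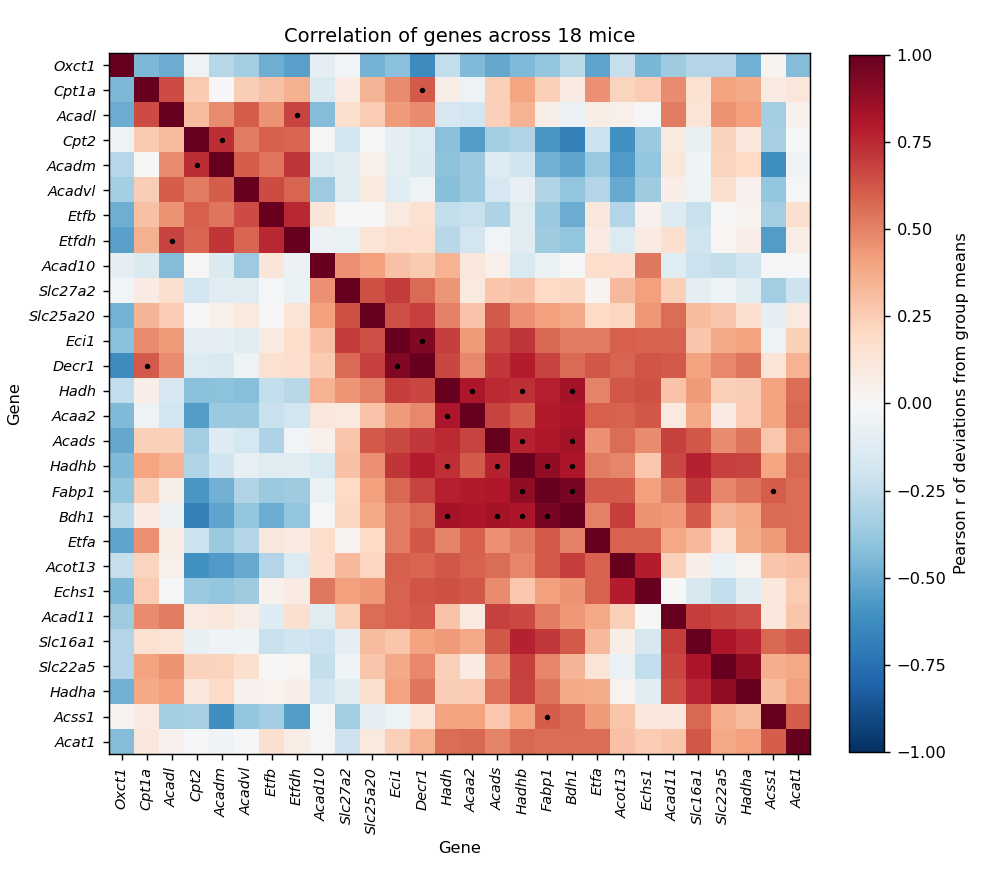
Pearson's r between each pair of the 28 genes (rows and columns, ordered by clustering) across the 18 mice without MSXH 4 and MSXH 6, on deviations from the group means (red, positive; blue, negative); black dots mark the 13 pairs past an adjusted p of 0.05 by both coefficients. The dotted pairs are all red, and Bdh1, Fabp1, Hadhb, Hadh, Acads and Acaa2 stand beside each other.

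Fabp1 and Bdh1 were also set against marker lists of 7 cell types across the same 18 mice, a family of 14 relations. The mean of the hepatocyte list alone passed by both coefficients for both genes, and it ran opposite to them. The mean of its 8 measured markers had r = -0.776 with Bdh1 (rho = -0.735; adjusted permutation p = 0.0076 and 0.0189) and -0.725 with Fabp1 (rho = -0.703; adjusted 0.0167 and 0.0189). Without the 2 farthest mice these were -0.730 and -0.727. The mean of 14 macrophage and Kupffer cell markers had r = 0.689 with Bdh1 and 0.635 with Fabp1, but with rho = 0.574 for both the rank measure did not pass (adjusted permutation p = 0.0591). The 6 endothelial markers had r = 0.632 with Bdh1 (rho = 0.502, adjusted permutation p = 0.0947) and 0.645 with Fabp1 (rho = 0.631, adjusted permutation p = 0.0433). The mean level of the hepatocyte list lay between 13.0110 and 13.0205 on the deposited scale in HFD and between 13.0118 and 13.0194 in MSXH, that of the macrophage list between 8.4479 and 8.4493 and between 8.4477 and 8.4499, and that of the endothelial list between 8.5699 and 8.5712 and between 8.5694 and 8.5717. For the skeletal muscle, adipocyte, cholangiocyte and stellate lists, with 14, 5, 4 and 5 measured markers, no relation passed by both coefficients. Each list level is the plain mean of its markers' deposited values, so the markers that vary most weigh most in it. Over all genes the SD ran from 4.38e-08 to 1.79. Relations of single markers are not given here, so a list mean may not describe all its markers. The part of cell makeup in these relations was not tested.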

How the data were processed

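Liver RNA of 20 mice was measured on Affymetrix 3' arrays with biotin label, 1 array per mouse, per the labels' protocols. The authors deposited 1 table of 45101 probe sets, processed to values that are taken as log2 from their range of 5.17 to 15.01. The labels name no log base, background correction or normalization, so these steps are unknown here. Values were used unchanged. Of the probe sets, 34945 had 1 symbol in the platform annotation and were no control, 932 had several, 9211 were not listed and 64 were controls. The probe set of highest mean stood for each gene (18193 genes, no filter), and 18 members had several, which differed in sign for 8.

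limma 3.58.1 in R 4.3.3 (lmFit, eBayes with a trend, two-sided) compared the groups, with Benjamini-Hochberg over all genes. Intervals of standardized differences came from the noncentral t distribution with each gene's own SD. The limma p-values use a variance moderated across genes, so an interval and its p can differ in what they show. Python 3.11.15 with scipy 1.17.1 ran the two-sided permutations. Both were tested on simulated data. Every member is named by role, with full statistics for the 10 of smallest p and for fixed key genes, and the 4 of smallest p in the list of other pathway genes. Members and lists were chosen with earlier results of these data known. Mice sharing a replicate number correlated from -0.265 to 0.165, so numbers were not read as pairs. The labels call the samples biological replicates. For Cpt1b and Ucp2 the relations planned with cell type lists could not be computed. The alternatives are scaling, probe set choice, test settings, arrays left out and a block. With arrays, precision is set by how many mice there are.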

Additional observations from a re-analysis of the deposited data

Results flagged for a closer look

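In 6 of the 56 groups of 10 mice (28 genes, 2 groups), 1 mouse stood further from the next than Dixon's critical value for 10 samples allows, as a share of the group's range. Chance alone flags about 1 in 20 groups of normally distributed values. The share flagged over all genes is not given here, so the count is not read as particular to these genes. MSXH 4 was the highest MSXH mouse for Acss1, with a gap of 0.741 of the range, and for Oxct1, with 0.724. It is one of the 2 arrays with a high mean level of the skeletal muscle genes. Of those genes, Acta1 and Myh1 lay above all other mice in both arrays, Ckm in MSXH 4 only and Mb in neither. HFD 9 was the lowest HFD mouse for Fabp1, with a gap of 0.494, and for Etfa, with 0.509. HFD 5 was the highest HFD mouse for Eci1, with a gap of 0.531. HFD 7 was the highest HFD mouse for Etfb, with a gap of 0.654.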

How the results depend on the processing

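No member passed an adjusted p of 0.05 under any of the alternatives run, including those without each array in turn. The count of members at an unadjusted p under 0.05 was 0. It became 1 with each gene's most variable probe set (Cpt2), where 11.6% of all genes lay under that p. With all probe sets tested it was 2, beside 10.7% of all probe sets. Without MSXH 4 and 6 it was 1 (Acadl), beside 10.3% of all genes. Without them and with quantile normalization it was 1 (Acad10), beside 11.7%. On leaving out each array in turn it was 0 to 1, beside 9.16% to 12.2% of all genes. By limma these were Slc25a20 without HFD 3 (p = 0.0172), MSXH 2 (p = 0.0453) or MSXH 5 (p = 0.0333), and Acadl without MSXH 4 (p = 0.0207). The median standardized difference ran from -0.200 to 0.0474 on leaving out each array. With the replicate block it was -0.100, and 0 members were called. Quantile normalization left 6 of the 28 members, and 16 on the 18 arrays, at a single value on every array, so these gave no value. Of the other 22, 9 changed sign. With centring, where all members share the variation of the array medians, 12 of 28 did. After quantile normalization Acadl stood at 0.311 and Etfa at -0.447. Etfb, Etfdh, Cpt1a, Cpt2, Acadvl, Acad11, Hadhb, Eci1 and Decr1 stood at the same -0.447. With 10 mice a group that value arises when only 1 array differs from all others, so it does not estimate a group difference. The value of Acadl may also rest on tied values and is not read as a reversal. The pairs of members past both coefficients numbered 13, and 182 with centring, 7 with mean probe sets and 2 with quantile normalization (12 members, 66 pairs); these settings were chosen after seeing the data. Without the 2 mice farthest from the median, MSXH 9 and HFD 10, Cpt1a with Slc25a20 had r = 0.533 (permutation p = 0.0328) and rho = 0.468 (permutation p = 0.0707), so that the rank measure did not pass. Beyond the ties under quantile normalization, the cause of these changes was not tested. Without a stated scale, the compressed spread limits what size of RNA difference an SD stands for.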
